A study of Homo sapiens with 6 samples.

Results

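The replication-dependent histone genes were followed in RNA-seq of OCI-AML3, a human cell line established from acute myeloid leukaemia. They were taken by name: protein-coding genes with the symbol H2AC, H2BC, H3C or H4C plus a number, or H1-1 to H1-5, formerly the HIST1, HIST2, HIST3 and HIST4 genes. All 68 genes under this rule were present among the 60660 gene IDs in the files: 5 for linker histone H1, 17 for H2A, 18 for H2B, 13 for H3 and 15 for H4. The HIST1 cluster on chromosome 6 held 54 of them, HIST2 on chromosome 1 held 11, HIST3 on chromosome 1 held 2 and HIST4 on chromosome 12 held 1.

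3 libraries came from cells with the empty lentiviral vector pLenti and 3 from cells overexpressing SLC2A3, the gene of the glucose transporter GLUT3. Cells of both groups received 250 µM vitamin C, so the comparison addresses the transporter in treated cells only. Nothing in the labels says that replicates were separate cultures, so p-values measure the spread between these libraries, which may be technical. Values are normalised reads: gene read counts divided by 1 size factor per library. Libraries held 31054462 to 35770556 reads. SLC2A3 had 1194, 1183 and 1257 normalised reads with the empty vector against 4056, 3716 and 4054 with overexpression. Its log2 change, here and below of the value + 1, which understates low genes, was 1.70 (SE 0.057, limma with Benjamini-Hochberg adjusted p = 7.95e-18) and the groups did not overlap, in the direction of their labels. All 12 myeloid leukaemia markers examined were detected, whereas CD3D, CD3E, MS4A1, HBB and HBA1, defining markers of T cells, B cells and erythroid cells, were at 0 in every library.

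Replication-dependent histones package newly made DNA, and their genes are transcribed mainly in S phase under the coactivator NPAT. An H3-H4 tetramer and H2A-H2B dimers form the nucleosome core, and linker histone H1 binds the DNA that enters and leaves it. Their messenger RNAs normally carry no poly(A) tail and end just after a conserved stem-loop that is bound by SLBP. Some of these genes can also give longer, polyadenylated transcripts that read past the stem-loop. The labels do not say whether RNA was selected by its poly(A) tail.

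The stem-loop letters were searched as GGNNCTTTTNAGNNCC on the transcript strand of the GENCODE 29 transcripts (GRCh38), and were found in 30 of the 68 genes. 5 forms occurred. They are shown here, with the loop in capitals, because they are the shared end signal of the family and separate the H4 genes from the others.
H2AC8, chr6:26217417-26217432, plus strand: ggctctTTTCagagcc
H2BC7, chr6:26199968-26199983, plus strand: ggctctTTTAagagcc
H2AC11, chr6:27133515-27133530, plus strand: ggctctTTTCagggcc
H4C5, chr6:26205001-26205016, plus strand: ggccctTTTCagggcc
H4C14, chr1:149833032-149833047, plus strand: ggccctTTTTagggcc
The form of H2AC8 was shared by 6 H2A, 8 H2B and 3 H3 genes, and that of H2BC7 by 3 H2B genes and 1 H3 gene. The form of H2AC11 was found in that gene alone of the 30. The form of H4C5 occurred in 5 H4 genes and that of H4C14 in 3. Several annotated transcripts of the other 38 genes stop at the coding sequence, so a missing match says only that the letters are not in the annotated transcript.

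Upstream sequence was read from RefSeq (GRCh38.p14), which held a promoter for 63 of the 68 genes. 4 motifs were searched on both strands in windows from 250 bases before to 50 bases after the start: the TATA box (TATAAA), the CCAAT box (CCAAT), the octamer bound by OCT1 (ATTTGCAT) and the H1 box (AAACACA). The 250 bases before the start are printed for the 3 linker genes, for 1 H3 and 1 H2A gene that rose, and for H2AC8, whose neighbour H2BC8 is read in the opposite direction. Capitals mark the motifs on either strand. The starts of H2AC8 and H2BC8 lie 233 bases apart, so most of the stretch printed for H2AC8 is also upstream of H2BC8. Its TTTATA and ATGCAAAT are the TATAAA and ATTTGCAT of the H2BC8 promoter, read from the other strand.
H1-2, chr6:26056471-26056720, minus strand: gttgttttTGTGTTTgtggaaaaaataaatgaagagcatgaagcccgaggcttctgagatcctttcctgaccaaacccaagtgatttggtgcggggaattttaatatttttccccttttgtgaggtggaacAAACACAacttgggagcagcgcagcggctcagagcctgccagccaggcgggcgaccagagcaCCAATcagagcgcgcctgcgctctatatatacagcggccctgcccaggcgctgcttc
H1-4, chr6:26156079-26156328, plus strand: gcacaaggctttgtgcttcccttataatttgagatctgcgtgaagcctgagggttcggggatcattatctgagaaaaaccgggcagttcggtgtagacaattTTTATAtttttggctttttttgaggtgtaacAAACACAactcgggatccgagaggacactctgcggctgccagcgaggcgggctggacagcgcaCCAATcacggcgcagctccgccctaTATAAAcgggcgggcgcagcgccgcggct
H1-5, chr6:27867589-27867838, minus strand: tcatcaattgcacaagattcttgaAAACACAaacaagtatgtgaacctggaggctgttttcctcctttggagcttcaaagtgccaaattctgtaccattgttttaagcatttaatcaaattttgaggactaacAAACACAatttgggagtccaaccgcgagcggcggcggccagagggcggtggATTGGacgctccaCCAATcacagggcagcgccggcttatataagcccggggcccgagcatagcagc
H3C2, chr6:26032100-26032349, minus strand: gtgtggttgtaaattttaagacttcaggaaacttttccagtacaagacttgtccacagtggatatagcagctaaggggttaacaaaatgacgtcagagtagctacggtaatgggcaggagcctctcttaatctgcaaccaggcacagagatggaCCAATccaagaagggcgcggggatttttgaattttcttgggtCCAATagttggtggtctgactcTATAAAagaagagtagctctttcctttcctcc
H2AC16, chr6:27865067-27865316, plus strand: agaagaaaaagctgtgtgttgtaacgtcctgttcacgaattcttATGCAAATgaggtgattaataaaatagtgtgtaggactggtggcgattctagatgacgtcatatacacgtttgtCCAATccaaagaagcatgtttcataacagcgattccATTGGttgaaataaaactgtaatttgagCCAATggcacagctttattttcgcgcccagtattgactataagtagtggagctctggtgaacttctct
H2AC8, chr6:26216671-26216920, plus strand: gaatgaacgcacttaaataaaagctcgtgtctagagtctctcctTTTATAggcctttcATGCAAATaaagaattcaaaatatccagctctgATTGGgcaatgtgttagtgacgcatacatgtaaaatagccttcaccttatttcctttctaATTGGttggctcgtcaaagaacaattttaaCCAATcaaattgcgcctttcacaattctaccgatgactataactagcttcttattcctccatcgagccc
The H1 box was present in 5 of 5 H1 promoters, 1 of 16 H2A, 2 of 11 H3, 0 of 18 H2B and 0 of 13 H4 promoters, against 5.64% of 35116 promoters of the same length. The octamer was in 11 of 16 H2A and 14 of 18 H2B promoters but in 1 of 11 H3 and in no H1 or H4 promoter, against 1.77% of all promoters. The H3 match was at a second start of H3C4 (chr6:26199244-26199543), the same stretch as the H2AC7 promoter, and the other H3C4 promoter had no octamer. The CCAAT box was in every H1, H2A, H2B and H3 promoter and in 3 of 13 H4 promoters (34.6% of all promoters), and the TATA box was in 43 of 63 (11.5%). Letters between neighbouring genes read in opposite directions, such as H2AC8 and H2BC8, were counted for both genes. A match is a description of letters, not of a bound site.

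The summed level of the 68 genes was 2001, 2437 and 2067 normalised reads with the empty vector (replicates 1, 2 and 3, the order kept throughout) against 2803, 4409 and 2818 with SLC2A3. The groups did not overlap, and SLC2A3 replicate 2 was far above the other 5 libraries. The mean sum was 2168 ± 235 against 3344 ± 923 (SD, n = 3 per group), a ratio of 1.54. Without SLC2A3 replicate 2 the ratio was 1.30, and without replicate 2 of both groups it was 1.38. These sums were 0.00603% to 0.00735% of all normalised reads with the empty vector and 0.00844% to 0.0133% with SLC2A3, so the family was measured on few reads. In bulk RNA, a change in the share of cells that express these genes and a change in their RNA per cell cannot be told apart.

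**Figure D1:**
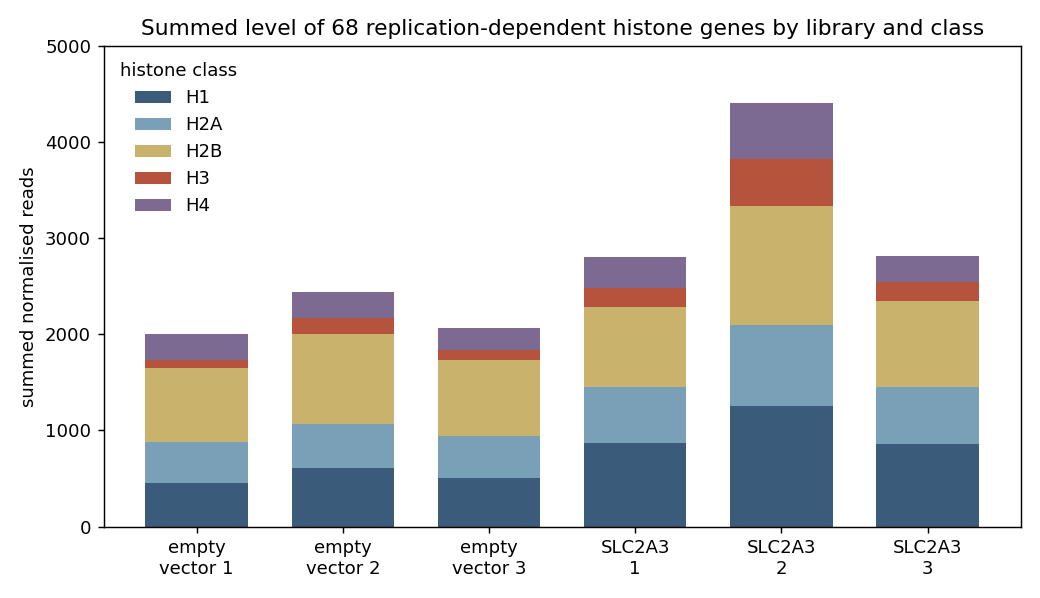
Stacked bars give the summed normalised reads of the 68 genes in each of the 6 libraries, coloured by histone class. The 3 SLC2A3 bars reach 2803, 4409 and 2818, above the highest empty vector bar at 2437.

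55 of the 68 genes reached 1 normalised read or more in 3 or more libraries and were tested. Of the 13 others, 7 had no read in any library (H2AC15, H2AC18, H2BC1, H3C3, H3C14, H3C15 and H4C7) and 6 had at most 7 reads over all libraries. 8 of the 55 reached a value of 1 in fewer than 3 empty vector libraries, so they passed with help from the SLC2A3 group. The median tested gene had a mean of 26.2 normalised reads. 6 of the 55 were called higher by limma at an adjusted p of 0.05 and 0 lower, beside 0.692% and 0.8% of the 28015 genes tested. Among the 12481 genes with means of 5 to 400, the span of most of these genes, 0.248% were called higher, 52.8% had changes above 0 and 7.39% had SLC2A3 libraries all above the empty vector libraries. Unadjusted p-values were under 0.05 for 24 of the 55, beside 11.8% of all genes. The median log2 change was 0.65 over the 55 genes and 0.00 over all genes. It was 0.39 without SLC2A3 replicate 2, when 5 genes were called. 51 of 55 changes were above 0, beside 50.3% of all genes. In 18 genes the SLC2A3 libraries all lay above the empty vector libraries (8.04% of all genes), and in 1 gene all below (8.27%). SLC2A3 replicate 2 was the highest library for 38 of the 55, beside 17.1% of all genes, and empty vector replicate 2 was the highest of its group for 23, beside 32.1%.

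**Figure D2:**
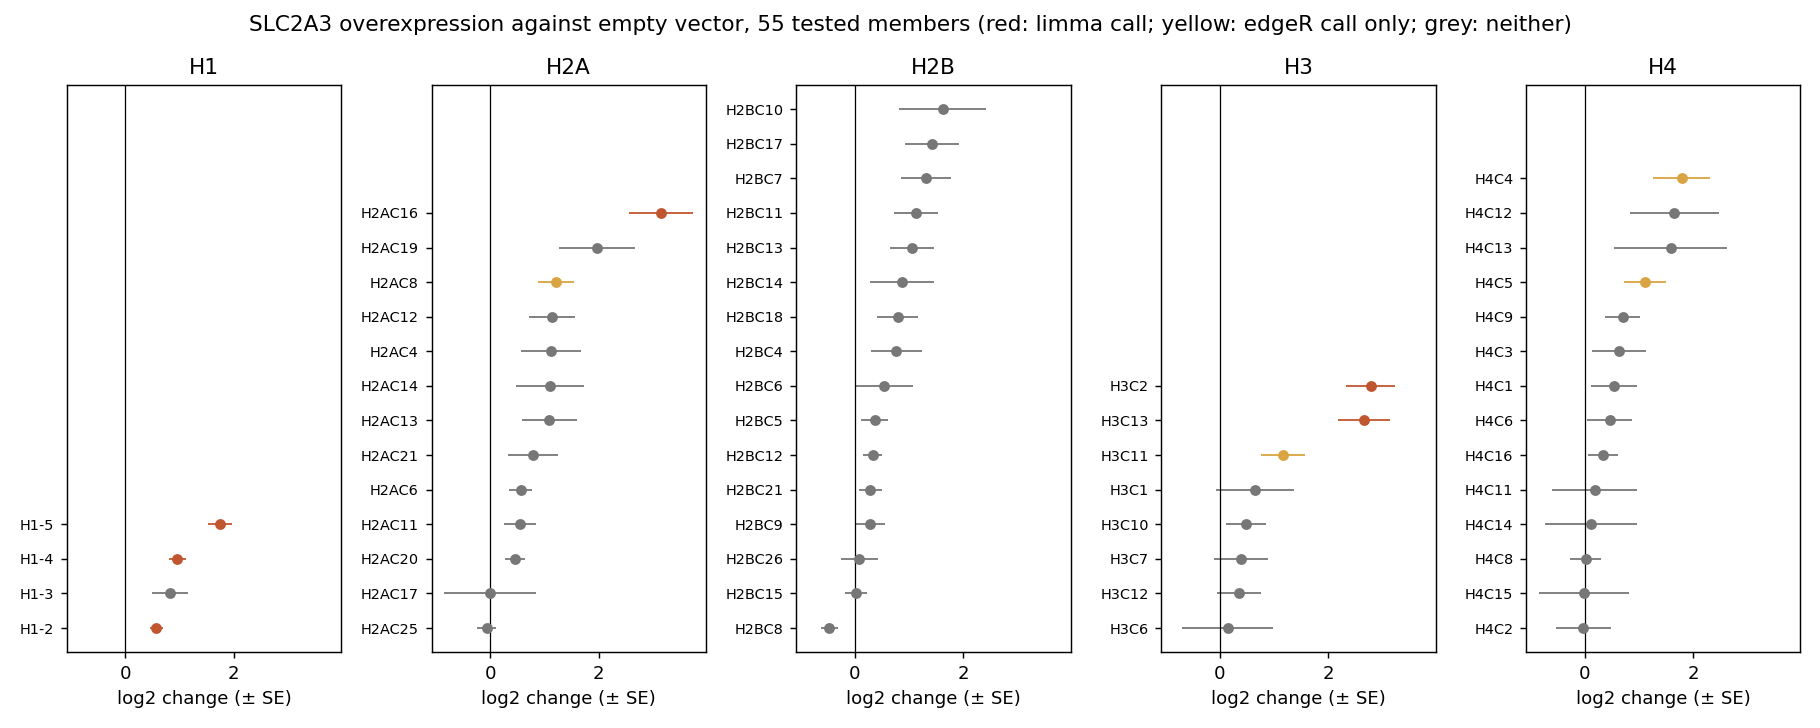
Points are log2 changes of normalised reads + 1, SLC2A3 against empty vector, with bars of 1 SE from limma, for the 55 tested genes in 5 panels by class. 51 points lie above 0. H2BC8, at −0.47, is the lowest.

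Linker histone genes gave 3 of the 6 calls, and all 4 tested H1 genes had changes above 0. The summed H1 level was 449, 614 and 506 against 867, 1256 and 861, a ratio of 1.90. It was 1.65 without SLC2A3 replicate 2, and the lowest SLC2A3 library lay above the highest empty vector library. H1 made up 22.5% to 25.2% of the family's reads with the empty vector and 28.5% to 30.9% with SLC2A3. Coding sequences of the 5 H1 genes shared no stretch of 50 bases with another gene, so their counts are separable by sequence.

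H1-5 (chr6:27866849-27867529) had 45.8, 80.0 and 48.1 normalised reads against 157, 269 and 164. Its mean rose from 58.0 ± 19.1 to 197 ± 62.9, a log2 change of 1.75 (SE 0.225, limma adjusted p = 3.81e-05). Every SLC2A3 library lay above every empty vector library, with replicate 2 highest in each group. H1-4 (chr6:26156354-26157107) had 146, 246 and 205 against 316, 512 and 339. It rose by 0.96 on the log2 scale (SE 0.164, limma adjusted p = 0.00107), again with no overlap and with replicate 2 highest in each group. H1-2 (chr6:26055787-26056428) had 226, 243 and 226 against 349, 370 and 319, the narrowest spread of the 3 genes. It rose 1.49-fold (log2 change 0.57, SE 0.114, limma adjusted p = 0.00495). H1-3 had 29.5, 41.0 and 26 against 45.5, 104 and 38.4 and did not pass the test (log2 change 0.82, limma adjusted p = 0.291). Its groups overlapped, since SLC2A3 replicate 3 lay under empty vector replicate 2. H1-1 was at or near 0 and was not tested.

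**Figure D3:**
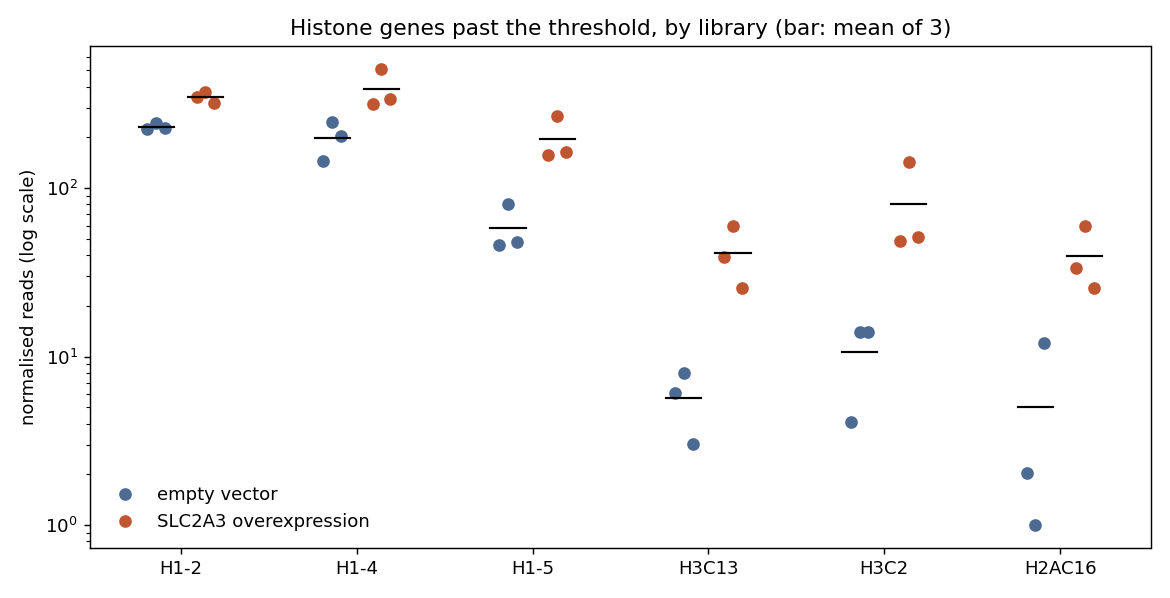
Points are normalised reads of the 6 called genes in each library on a log axis, with a bar at the mean of the 3 libraries of a group. The groups do not overlap for any of the 6 genes, and SLC2A3 replicate 2 is the highest library for each.

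H2A genes gave 1 call among 13 tested, with 12 changes above 0. The summed H2A level was 432, 455 and 435 against 590, 844 and 588, a ratio of 1.53 and of 1.34 without SLC2A3 replicate 2. H2AC16 (chr6:27865355-27865747) rose from 2.04, 1.0 and 12.0 to 33.4, 59.5 and 25.6 normalised reads. Its log2 change was 3.15 (SE 0.597, limma adjusted p = 0.00331), which rests on few reads in the empty vector group. The call was lost without SLC2A3 replicate 2 (limma adjusted p = 0.0614). The annotated span of H2BC15 (chr6:27837760-27865798, plus strand) covers H2AC16 on the same strand. How reads in such overlaps were assigned is not stated, so the reads of H2AC16 are uncertain. H2AC8 (chr6:26216975-26217483) had 26.5, 16 and 22.0 against 51.1, 60.4 and 40.6, with no overlap. Its log2 change of 1.21 did not pass in limma (adjusted p = 0.0688) and passed in edgeR's quasi-likelihood test (adjusted p = 0.0352).

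The most abundant H2A genes showed smaller differences. H2AC20 had 119, 115 and 93.1 against 147, 189 and 119 (log2 change 0.45, limma adjusted p = 0.288). H2AC6 had 66.2, 116 and 63.1 against 121, 115 and 114 (0.56, adjusted p = 0.248), and its empty vector replicate 2 was as high as the SLC2A3 group. H2AC25, of the HIST3 cluster, had 127, 102 and 144 against 117, 112 and 126 (−0.06, adjusted p = 0.943). None of the 3 passed the test, and the groups of all 3 overlapped, those of H2AC20 only just.

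No H2B gene was called among 16 tested by limma or edgeR (6 had an unadjusted p under 0.05), and 15 changes were above 0. The summed H2B level was 766, 936 and 793 against 830, 1230 and 902, and the groups overlapped. The ratio of 1.19 was 1.04 without SLC2A3 replicate 2. The H2B share of the family's reads was 38.3% to 38.4% with the empty vector and 27.9% to 32.0% with SLC2A3. H2BC8 (chr6:26215159-26216692) had 208, 288 and 226 against 136, 197 and 189. It was the 1 gene of the 55 with all SLC2A3 libraries below all empty vector libraries, and its log2 change of −0.47 (SE 0.154) did not pass (limma adjusted p = 0.148). H2BC12 had 123, 91.0 and 95.1 against 126, 128 and 131 (log2 change 0.33, adjusted p = 0.503). H2BC15 had 78.4, 122 and 100 against 98.4, 117 and 87.6 (0.02, adjusted p = 0.984), with overlapping groups.

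H3 genes gave 2 calls among 8 tested, all 8 with changes above 0. The summed H3 level was 87.6, 164 and 104 against 199, 490 and 192, a ratio of 2.48. It was the largest of the 5 classes with all libraries, and without SLC2A3 replicate 2 it was 1.65, as for H1. H3C2 (chr6:26031589-26032099, RefSeq) had 4.07, 14 and 14 against 48.3, 143 and 51.3. It rose by 2.78 on the log2 scale (SE 0.449, limma adjusted p = 0.000607), and its lowest SLC2A3 library was far above the empty vector group. H3C13 (chr1:149813271-149813681), of the HIST2 cluster, had 6.11, 8.0 and 3.0 against 39.0, 59.5 and 25.6. Its log2 change was 2.66 (SE 0.486, limma adjusted p = 0.0023). Of its coding 50-base stretches, 81.1% also occur in other genes, so its reads are uncertain. H3C11 had 14.3, 21.0 and 26 against 27.9, 94.0 and 36.3, higher without overlap (log2 change 1.16, limma adjusted p = 0.172, edgeR adjusted p = 0.0462). H3C12 had 22.4, 51.0 and 14 against 24.1, 46.0 and 31.0 and overlapped (0.35, limma adjusted p = 0.824).

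No H4 gene passed in limma among 14 tested (3 had an unadjusted p under 0.05), with 12 changes above 0. The summed H4 level was 266, 268 and 230 against 318, 589 and 274, a ratio of 1.55 and of 1.16 without SLC2A3 replicate 2. H4C4 had 4.07, 7.0 and 12.0 against 17.6, 56.6 and 19.2, with no overlap (log2 change 1.79, limma adjusted p = 0.0925, edgeR adjusted p = 0.0247). H4C5 had 31.6, 24.0 and 17.0 against 40.9, 112 and 29.9 (1.11, limma adjusted p = 0.194, edgeR adjusted p = 0.0434), and its SLC2A3 replicate 3 lay under the highest empty vector library. H4C16, the HIST4 gene, had 34.6, 54.0 and 57.1 against 45.5, 79.6 and 59.8 (0.33, limma adjusted p = 0.732). H4C8 had 71.3, 54.0 and 35.0 against 43.6, 51.8 and 61.9 (0.02, limma adjusted p = 0.994). The last 2 genes overlapped between groups.

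Under TMM factors, edgeR's quasi-likelihood test gave a wider count: 10 of the 55 genes were higher and 0 lower, beside 0.914% and 0.885% of all genes. They were the 6 limma calls with H2AC8, H3C11, H4C4 and H4C5. DESeq2 called H1-2 and H1-4 (3.1% of genes with an adjusted p were higher), and its default filter gave no adjusted p to genes as low as the other 4. Summed over the 6 limma calls, the level was 430, 592 and 509 against 943, 1413 and 925, 23.5% of the family's mean level with the empty vector and 32.7% with SLC2A3. Summed over the other 62 genes, the ratio of group means was 1.36, and 1.13 without SLC2A3 replicate 2. The 6 genes were chosen by their change in these same libraries. Their larger share with SLC2A3 and the lower ratio of the other 62 therefore follow in part from that choice.

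The clusters differed in their summed ratios, at 1.6 for HIST1, 1.57 for HIST2, 1.27 for HIST4 and 0.96 for HIST3. HIST3 and HIST4 were measured through 2 genes and 1 gene. Among the 63 genes with a promoter sequence, 12 pairs started within 1000 bases of each other in opposite directions. Both genes were tested in 9 pairs. Pairs with a gene that lacks such a sequence were not counted, such as H2AC12 with H2BC12 on the opposite strand (log2 changes 1.14 and 0.33). Both changes were above 0 in 7 of the 9. These include H2AC17 and H2BC17, with log2 changes of 0.002 and 1.42, where H2AC17 had a mean of only 1.0 normalised reads. H2AC8 and H2BC8, whose starts were 233 bases apart, had log2 changes of 1.21 and −0.47. H2AC25 and H2BC26, at 230 bases, had −0.06 and 0.08, both near 0. In the 8 counted pairs of an H2A with an H2B gene that were both tested, the H2A gene had the larger change in 4.

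Annotated 3′ ends in GENCODE 29 also differed. The longest annotated transcript of 22 genes continued more than 100 bases past the stem-loop, as in H2BC8 with 1059 bases and H4C5 with 1022, while 8 genes, such as H2AC8 with 51, ended sooner. 3 of the 22, H2BC6, H2BC15 and H4C8, also have an annotated transcript that ends at most 18 bases after a stem-loop. They are counted with the long ends. In H2BC15 the short end follows another stem-loop, at chr6:27865778-27865793, and the long end follows that at chr6:27839090-27839105. The stem-loop of the short end lies just past the GENCODE 29 end of H2AC16 (chr6:27865355-27865747, plus strand). It is inside the RefSeq span of H2AC16 (482 bases), so it may be the stem-loop of that gene. H2AC16 is nevertheless counted below with the genes that have no stem-loop in the annotated transcript. The 19 tested genes with a long annotated end had a median log2 change of 0.33, with 0 limma calls, 1 edgeR call and 6 unadjusted p-values under 0.05. Their summed level had a ratio of 1.17 (1.04 without SLC2A3 replicate 2). The 7 tested genes with a short end had a median of 1.05 and a summed ratio of 1.64 (1.30 without SLC2A3 replicate 2), with 0 limma calls, 1 edgeR call and 4 unadjusted p-values under 0.05. The 29 tested genes with no stem-loop in the annotated transcript were all above 0, with a median of 0.96, all 6 limma calls and a ratio of 1.92 (1.57 without that library). These 3 sets are descriptions of the GENCODE 29 annotation and depend on it. RefSeq spans are only 489 bases for H2BC8 and 412 for H4C5, while that of H2BC21, also with a long end, is 2224. The deposited IDs of H3C2 and H3C3 are not in GENCODE 29, so reads were counted on another annotation. The deposited values hold 1 number per gene, so reads past the stem-loop cannot be separated from the rest.

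**Figure D4:**
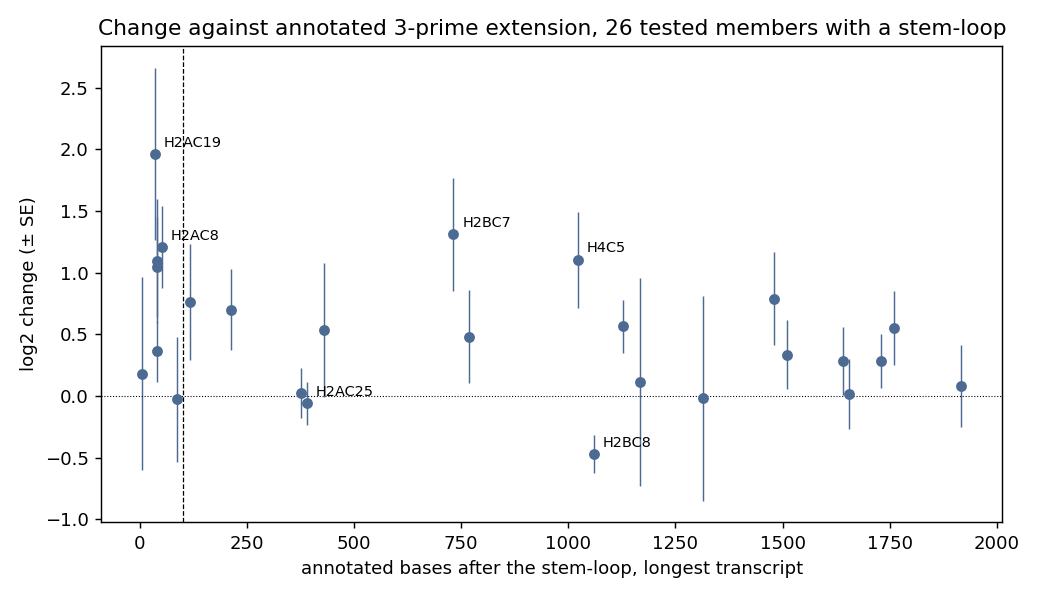
Points are the 26 tested genes with a stem-loop in an annotated transcript, placed by the bases annotated after the stem-loop and by log2 change with bars of 1 SE. The dashed line marks 100 bases; H2AC8 at 51 bases stands at 1.21 and H2BC8 at 1059 bases stands at −0.47.

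Genes around the histone pathway gave few or no calls. Of 29 genes for transcription and 3′ processing of histone RNA, 0 were called by limma, edgeR or DESeq2 (1 had an unadjusted p under 0.05) and their median log2 change was −0.03. SLBP, the stem-loop binding protein, had 4396, 4506 and 4192 against 4124, 4681 and 4202, with overlapping groups. NPAT had 677, 515 and 644 against 583, 542 and 560, also overlapping. Of 26 histone chaperones, DESeq2 called 1 lower, beside 451 of the 11178 genes to which it gave an adjusted p. For the 26 chaperones limma and edgeR called 0 (6 at an unadjusted p under 0.05), and the median log2 change was −0.05. Their changes were above 0 in 3 of 26, and in 9 all SLC2A3 libraries lay below all empty vector libraries, beside 8.27% of all genes.

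Variant and replacement histones, many of which are made outside S phase too, were taken as a separate list. Their summed level was 77580 to 80410 with the empty vector and 77110 to 80440 with SLC2A3. Of the 14 tested, limma called 1 lower and 0 higher, beside 0.8% and 0.692% of all genes, and the median log2 change was −0.05. The lower gene was H3-4, the testis H3 histone, at 8.15, 7.0 and 9.01 against 0 in each SLC2A3 library (limma adjusted p = 0.0199). The call was lost without SLC2A3 replicate 2 (adjusted p = 0.0541 in limma) or 3 (0.0712). H3-4 passed the filter through the empty vector libraries alone, so it was not tested when any 1 of these was left out. H3-3A, a replacement H3 gene, had 19488, 18838 and 18536 against 19051, 19590 and 19836 (log2 change 0.04, limma adjusted p = 0.762).

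S phase genes had changes mostly below 0. Of 38 tested, limma called 4 lower, beside 0.8% of all genes, and 0 higher, and 37 had log2 changes below 0, with a median of −0.13. edgeR also called 4 lower, beside 0.885% of all genes. DESeq2 called 13 lower, beside 451 of the 11178 genes to which it gave an adjusted p. In limma 24 unadjusted p-values were under 0.05, beside 11.8% of all genes. UHRF1, which guides maintenance DNA methylation, had 6747, 6459 and 6847 against 5361, 5230 and 5637 and fell by 0.31 on the log2 scale (limma adjusted p = 0.000218). TK1, the thymidine kinase of dividing cells, had 7784, 8054 and 7981 against 6828, 6762 and 6508 and fell by 0.25 (limma adjusted p = 0.0012). The other 2 were the helicase subunit MCM5 (−0.18) and the polymerase subunit POLE (−0.19). Both of these calls were lost without SLC2A3 replicate 2 (limma adjusted p = 0.056 and 0.172) or replicate 3 (0.0699 and 0.199). The POLE call was also lost without empty vector replicate 1 (0.0648) or 3 (0.172). In 24 of the 38 all SLC2A3 libraries lay below all empty vector libraries, beside 8.27% of all genes.

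Other RNAs without a poly(A) tail included 1 called higher by limma, 2 by edgeR and 0 lower by either of 16 tested. Of all genes, limma called 0.692% higher and edgeR 0.914%. The median log2 change of the 16 was 0.41. SLC2A3 replicate 2 was the highest library for 9 of the 16, beside 17.1% of all genes. Empty vector replicate 2 was the highest of its group for 7, beside 32.1%. The called gene was RN7SL1, the RNA of the signal recognition particle, at 538, 1812 and 705 against 2233, 6026 and 1922 (log2 change 1.74, SE 0.29, limma adjusted p = 0.000861), and DESeq2 did not call it (adjusted p = 0.141). Its replicate 2 was the highest library of each group, as for H1-4 and H1-5. The edgeR test added RN7SL3, whose sequence is so like that of RN7SL1 that reads could be shared, at 3.06, 19 and 7.01 against 20.4, 63.3 and 25.6 (edgeR adjusted p = 0.0299, limma adjusted p = 0.0706), also highest in replicate 2 of each group. The U3 RNA gene SNORD3A had 306, 487 and 274 against 345, 708 and 378, likewise highest in replicate 2 of each group, and did not pass (limma adjusted p = 0.404). MALAT1, a nuclear RNA whose end is formed by cleavage, had 32433, 30773 and 32921 against 35747, 31700 and 36813 and was not highest in replicate 2. The part of these RNAs, or of their recovery in each library, in the histone result was not tested. Markers of epithelial cells, fibroblasts and kidney lines summed to 50.1 to 65.0 against 81.7 to 113. All 10 were detected, 7 were tested, 0 were called, and their median log2 change was 0.77. Their part in the result was also not tested.

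**Figure D5:**
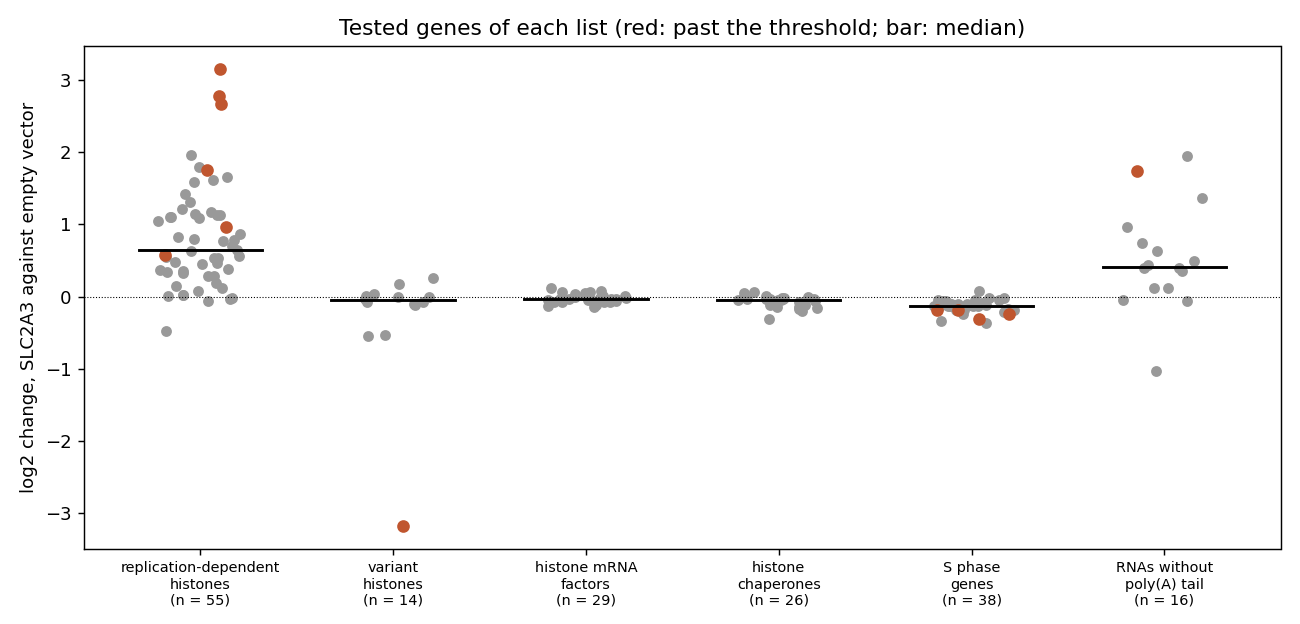
Points are log2 changes of tested genes in 6 lists, with a bar at each median and red points past the threshold. The replication-dependent histones have a median of 0.65 and the RNAs without a poly(A) tail 0.41, while the other 4 medians lie between −0.13 and −0.03.

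Shared sequence limits single genes. In 17 of the 68 genes at least 50% of coding 50-base stretches occur in another gene, and in 9 all of them do, so reads may be split or dropped between these copies. The summed ratio was 1.58 over the 17 and 1.54 over the others. Without replicate 2 of both groups, and with the filter lowered to 2 libraries, limma called 6 genes in the whole table. None of them was among the 68 genes. With all libraries 418 genes (1.49%) were called.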

How the data were processed

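Each of the 6 files pairs 60660 gene IDs with a value. What the authors deposited is a normalised signal: 100% of the values are whole multiples of 1 step per library, within 0.001 reads, and the factors (0.936 to 1.08) equal DESeq2's median-of-ratios size factors on the recovered reads. RNA was extracted with Trizol and libraries were made with a NEBNext Ultra II Directional kit, per the labels' protocols. BWA, TopHat2 and hg38 stand in the submitters' processing notes without roles or versions. How RNA was selected and whether counting used strand are not stated, so reads of antisense transcripts cannot be told apart. Symbols were found for 60641 IDs, 60463 from a gene name table and 178 from GENCODE 29. Coordinates are 1-based on GRCh38 from GENCODE 29 unless RefSeq is named.

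log2(value + 1) was fitted with limma 3.58.1 (R 4.3.3), group as the only term, on the 28015 genes that reached a value of 1 in 3 or more libraries. Benjamini-Hochberg adjustment covered all of them, and calls needed an adjusted p under 0.05. Fold changes use this scale, which understates low genes. Alternatives, 16 in all, used edgeR 4.0.16 and DESeq2 1.42.0 on the recovered reads, other pseudocounts, filters and scaling, a replicate block and left-out libraries. Replicate pairs differed by a chi-square of 3.50 to 6.78 per gene, so no library was counted as a duplicate. The code was tested on simulated data. The changed genes in it were not as low as many of the histone genes, and no simulated library stood apart. It therefore does not show how the tests perform under those conditions.

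The members and gene lists were chosen with earlier results of these data known. The rule for naming genes took the called genes, the 3 highest of each class by mean level, members called by edgeR alone, and of the other lists the called genes and the 4 highest, not all of which are printed. H1-1, H1-3, H2BC26, SLBP, NPAT and RN7SL3 lie outside it and were chosen after their values were seen.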

Additional observations from a re-analysis of the deposited data

How the results depend on the processing

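Alternatives changed 1 choice at a time, except where stated. The direction of all 6 called genes and of the summed level stayed the same in every alternative that gave a value. The count of members called higher, 6 with all libraries, was 10 with edgeR under either TMM or relative log expression factors, 8 with the filter of at least 10 in 3 libraries, 2 with DESeq2, and 0 without both replicate 2 libraries, where 2 libraries a group remained and 6 genes were called in all. In that last setting the filter was also lowered to 2 libraries, and 28853 genes were tested. Leaving out 1 library gave 5 to 7 members and 188 to 466 genes in the whole table, against 418, and DESeq2 called 797. The lowest of these, 188, was without SLC2A3 replicate 3, and it was 264 and 221 without empty vector replicates 1 and 3. Same-numbered libraries did not deviate together (correlations of −0.08, −0.00 and −0.00 over 13277 genes, and 0 libraries closest to their own number), so the numbers do not pair the samples. A replicate block left 6 members higher, the log2 change of SLC2A3 at 1.70, the median at 0.65 and 167 genes higher and 196 lower. Some uncalled genes near 0 changed sign. With 1 library left out, log2 changes ran from −0.049 to 0.03 for ANP32E, −0.19 to 0.053 for H2AC25, −0.042 to 0.041 for H2AZ1, −0.14 to 0.18 for H2BC15, −0.026 to 0.0043 for H3-3B, −0.056 to 0.84 for H3C12, −0.25 to 0.25 for H4C8, −0.026 to 0.009 for MACROH2A1, −0.013 to 0.034 for SRRT and −0.0073 to 0.014 for SSRP1. H4C8 also reached −0.025 and −0.030 with edgeR under TMM and relative log expression factors. The cause was not tested. Few reads per gene, a median of 26 per tested member and library, limit single calls.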
